A study of Mus musculus with 26 samples.

Results

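The nuclear genes of oxidative phosphorylation were followed by name in RNA-seq counts of LSK cells, which are sorted from bone marrow as lineage-negative cells with Sca-1 and c-Kit and include the blood stem cells. Symbols of the Nduf, Uqcr, Cox4 to Cox8 and Atp5 families and Sdha, Sdhb, Sdhc and Sdhd, without pseudogenes, matched 84 of 24091 rows of the table. Of these, 79 had at least 1 CPM (read counts scaled to library size) in at least 5 libraries and are described here. They comprise 36 genes of complex I, 4 of complex II, 8 of complex III, 14 of complex IV and 17 of complex V. All 79 also passed the separate filter on low counts before testing, among 13379 genes. The 5 left out were Cox7a1, with a mean of 0.418 CPM and 0.804 at most, Ndufa4l2 with 16 counts, Cox7b2 with 1 count, and Cox8b and Cox8c with 0 counts in every library, where 0 allows up to 3 counts. The member with the fewest libraries of at least 1 CPM was Cox6a2, with 23, and Cox7a1 had 0. The table held 0 rows of the mitochondrial chromosome, which encodes further subunits.

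All mice were C57BL/6 with the SCLtTA/BCR-ABL transgenes, which drive a leukaemia that models CML (chronic myeloid leukaemia) under tetracycline control. The groups differed in Spred1, a brake on signalling through RAS and ERK. The global KO group (6 libraries) was labelled as a knockout of Spred1 in the whole body, the EC KO group (5) was labelled as an endothelial knockout, and the HSC KO group (5) was made with Mx1-cre, an interferon-inducible Cre that is also active outside blood cells. The HSC wt group (5) was the control of HSC KO, and both received 7 doses of 250 µg poly(I:C) at intervals of 2 days. Whether HSC wt itself carried Mx1-cre is not reported here. The Spred1 wt group (5) was the control of global KO. The EC wt control was not analysed here and EC KO was compared with Spred1 wt, while the driver of the endothelial Cre and any poly(I:C) in the global KO, EC KO and Spred1 wt groups were not stated. Each library is read as 1 mouse, and p-values measure the spread between libraries.

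Total counts were 14816071 to 26714325 per library. Spred1 had a median of 33.1 CPM in global KO, 66 in EC KO, 32.8 in HSC KO, 106 in HSC wt and 110 in Spred1 wt, with every knockout library under every wild-type library. The transcript was thus reduced in these libraries and not at 0, and counts per gene do not show the deleted part. In EC KO, where the label places the loss in endothelium, these LSK libraries themselves had 58 to 84 CPM, against 92.4 to 148 CPM in Spred1 wt. The LSK markers Kit, Ly6a, Cd34 and 6 others summed to 1794 to 3143 CPM, with no marker at 0. Transcripts of Xist marked 2 EC KO, 3 HSC KO and 2 HSC wt libraries as female, and 0 libraries of the global KO and Spred1 wt groups. Mast cell markers were carried in all groups, at sums of 441 to 15060 CPM for 8 genes.

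Oxidative phosphorylation takes electrons from NADH at complex I and from succinate at complex II, passes them through ubiquinone, complex III and cytochrome c to oxygen at complex IV, and uses the proton gradient built on the way to make ATP at complex V. Each complex except complex II joins nuclear subunits to subunits made inside the mitochondrion, so its assembly needs both genomes. Blood stem cells are known for a low reliance on this pathway at rest and a rising one as they divide and differentiate, and leukaemic stem cells of CML have been described as more dependent on it.

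Promoter windows of 300 bases, with 250 before and 50 after the annotated start, were available from RefSeq on GRCm38.p6 for 66 of the 79 genes, 3 of them matched through a synonym. Of the 8 transcripts called below in a test of any difference among the groups, 4 are shown here. They lead that set and span the motif patterns found in it. Capitals mark matches on either strand to GCGCANGCGC (the core bound by the nuclear respiratory factor NRF1), CCGGAAG (ETS factors, among them GABP), ATGGCGG (YY1) or CCAAT. The Ndufb3 window lies at chr1:58586147-58586446 (+), the Ndufs4 window at chr13:114388045-114388344 (-), the Ndufa6 window at chr15:82354242-82354541 (-) and the Cox7c window at chr13:86046746-86047045 (-), each printed 5′ to 3′ along its gene.
Ndufb3: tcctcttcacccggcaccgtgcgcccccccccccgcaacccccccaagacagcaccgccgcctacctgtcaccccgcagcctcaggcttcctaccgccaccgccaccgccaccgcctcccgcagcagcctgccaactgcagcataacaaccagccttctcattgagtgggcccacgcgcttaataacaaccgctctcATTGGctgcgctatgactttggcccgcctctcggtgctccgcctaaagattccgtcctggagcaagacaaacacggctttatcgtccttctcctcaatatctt
Ndufs4: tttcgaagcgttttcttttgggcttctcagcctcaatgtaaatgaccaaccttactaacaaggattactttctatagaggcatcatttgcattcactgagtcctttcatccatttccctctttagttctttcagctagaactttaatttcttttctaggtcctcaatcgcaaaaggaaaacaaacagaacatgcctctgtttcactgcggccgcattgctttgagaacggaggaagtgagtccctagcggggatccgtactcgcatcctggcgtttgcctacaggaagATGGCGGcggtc
Ndufa6: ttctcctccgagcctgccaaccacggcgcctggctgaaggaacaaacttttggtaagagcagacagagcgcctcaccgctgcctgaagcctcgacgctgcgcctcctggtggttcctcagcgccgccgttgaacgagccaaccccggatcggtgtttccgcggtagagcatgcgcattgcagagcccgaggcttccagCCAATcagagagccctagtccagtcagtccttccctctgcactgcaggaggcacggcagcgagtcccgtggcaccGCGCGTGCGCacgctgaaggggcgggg
Cox7c: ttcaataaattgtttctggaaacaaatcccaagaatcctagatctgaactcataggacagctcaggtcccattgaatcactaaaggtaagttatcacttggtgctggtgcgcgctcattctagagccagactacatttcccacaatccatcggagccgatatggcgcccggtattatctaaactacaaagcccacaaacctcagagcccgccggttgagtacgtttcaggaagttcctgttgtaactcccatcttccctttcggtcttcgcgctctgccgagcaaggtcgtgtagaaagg

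The Ndufa6 window holds the NRF1 letters after the start and a CCAAT before it, the Ndufb3 window a CCAAT on the reverse strand, and the Ndufs4 window the YY1 letters just after the start, while the Cox7c window holds none of the 4. Among the other genes called below, Ndufc2 holds a CCAAT, Ndufa1 the YY1 letters, and Ndufa3 and Ndufa4 none. Over the 66 subunit windows, the NRF1 letters occurred in 17 (25.8%), against 5.19% of 27025 genes with a window of that length. Those 27025 genes include the 66 and are not limited to genes expressed in these cells, unlike the subunits. The ETS letters occurred in 16 (24.2%, against 9.93% of genes), the YY1 letters in 11 (16.7%, against 4.69%) and CCAAT in 29 (43.9%, against 41.1%). These are matches of letters and not measured binding, and in the 4 windows shown no match overlaps another. Sdha and Uqcrc1, for example, hold the NRF1 letters, and Sdhb and Uqcrh the ETS letters.

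Levels per kb of gene length (CPM per kb, mean over 26 libraries) spanned 3.29 to 560 among the 79 genes, and all following levels per kb are on that scale. The catalytic core of ATP synthase stood at the top, with Atp5b (beta subunit) at 560 and Atp5a1 (alpha) at 394. In complex IV, Cox4i1 (the regulatory subunit found in most tissues) led at 323 and Cox6b1 followed at 275. Uqcrh, the hinge protein of complex III, stood at 249, and Uqcrfs1, the Rieske iron-sulfur protein that passes electrons to cytochrome c1, was lowest there at 75.9. Complex II was the most even, between 82.1 for the membrane anchor Sdhc and 115 for the flavoprotein Sdha, with Sdhd (the other anchor) at 97.7 and Sdhb (the iron-sulfur subunit) at 84.0.

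Complex I genes were the lowest as a set, with a median of 62.6, against 90.9 for complex II, 110 for complex III, 160 for complex IV and 138 for complex V. Ndufa4 stood highest at 241, but its product is now assigned to complex IV in spite of its symbol. The lowest per kb was Ndufa11 at 7.78, with a deposited length of 3.393 kb, against a complex I median of 0.7065 kb. Before division by length its mean was 26.4 CPM, above that of Ndufs5 at 19.2 CPM. The core subunits named here lay within the range of the rest, with Ndufv1 (which binds NADH) at 64.9 and Ndufs1 (the largest iron-sulfur subunit) at 29.6. In complex V, Atp5s and Atp5sl were lowest at 8.10 and 15.2. Both are named for ATP synthase without being subunits of its core, and the Atp5sl product is known as a complex I assembly factor.

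**Figure D1:**
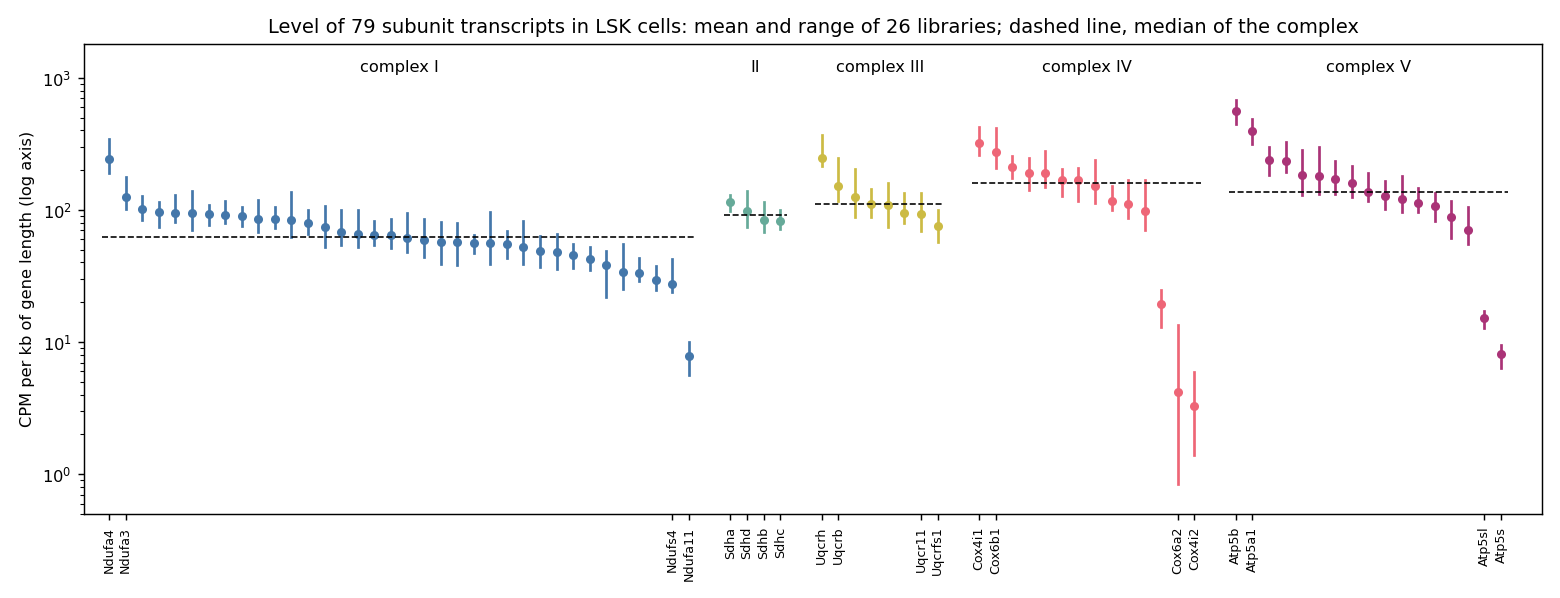
Level of each of the 79 genes in CPM per kb of gene length on a log axis, grouped by complex, with points for the mean of 26 libraries, lines for the lowest to highest library and dashed lines for the median of each complex. The 2 highest and 2 lowest genes of each complex are named. Atp5b leads at 560, and Cox6a2 and Cox4i2 lie lowest at 4.19 and 3.29.

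Muscle, lung and germline isoforms were minor. Cox4i2, the oxygen-responsive form best known from lung, made up 1.0% ± 0.355 (SD, n = 26 libraries) of the CPM per kb of Cox4i1 and Cox4i2, the scale of all shares here. Cox6a2, the heart and muscle form, made up 2.43% ± 1.83 of Cox6a1 and Cox6a2, but between 0.552% and 7.08% in single libraries. Cox6b2, the testis form, made up 6.80% ± 1.66 of Cox6b1 and Cox6b2. Cox7a1, the muscle form below the threshold, made up 0.532% ± 0.168 of its trio with Cox7a2 and Cox7a2l.

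Among widely expressed forms, the Atp5g shares were steady and the Cox7a2l share varied more. Atp5g1, Atp5g2 and Atp5g3 encode the same mature c subunit of the proton-driven ring of complex V, and held 20.2% ± 1.32, 24.96% ± 1.74 and 54.9% ± 1.47 of their summed CPM per kb (SD, n = 26). Cox7a2l held 54.7% ± 4.69 of Cox7a2 and Cox7a2l, but between 42.9% and 63.1% in single libraries. By group, the Cox7a2l share was 57.3% ± 2.97 in global KO, 51.9% ± 6.67 in EC KO, 53.4% ± 3.39 in HSC KO, 54.9% ± 6.25 in HSC wt and 55.5% ± 2.97 in Spred1 wt, so that every group's mean lay within an SD of another's. The counting rule for reads that match paralogs or pseudogenes, and its use of strand, are not given in the sources used here. Counts of these families, and of the 16 genes whose span overlaps another gene in the table, are therefore uncertain. Cox6a2 overlaps Itgad, an integrin gene, and Cox4i2 overlaps Bcl2l1, a survival gene.

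The genes moved together from library to library. With group means removed, a single component held 57.9% of their variance, against 38.3% over all genes tested, and 74 of 79 loaded on it with the same sign. These percentages describe 26 shared libraries. The mean log2 CPM of all 79 genes was 5.89 to 6.30 in the 6 global KO libraries, and 6.25, 6.33, 6.49, 6.29 and 5.97 in EC KO. It was 5.88, 6.17, 6.09, 6.19 and 6.22 in HSC KO, 5.81, 5.88, 6.00, 6.10 and 6.12 in HSC wt, and 5.93, 5.96, 6.21, 6.17 and 6.01 in Spred1 wt.

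All EC KO libraries except the fifth exceeded every Spred1 wt library, and the fifth lay inside their range. The third EC KO library had the highest value of all 26 for 48 of the 79 genes, the second EC KO library for 11 and the first global KO library for 13. The first HSC wt library was lowest for 38 and the first HSC KO library for 13. The 79 genes together took 0.951% ± 0.0939 of all counts in EC KO, 0.842% ± 0.0884 in global KO, 0.851% ± 0.0682 in HSC KO, 0.805% ± 0.0588 in HSC wt and 0.825% ± 0.0494 in Spred1 wt (SD over 5 libraries, 6 for global KO).

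**Figure D2:**
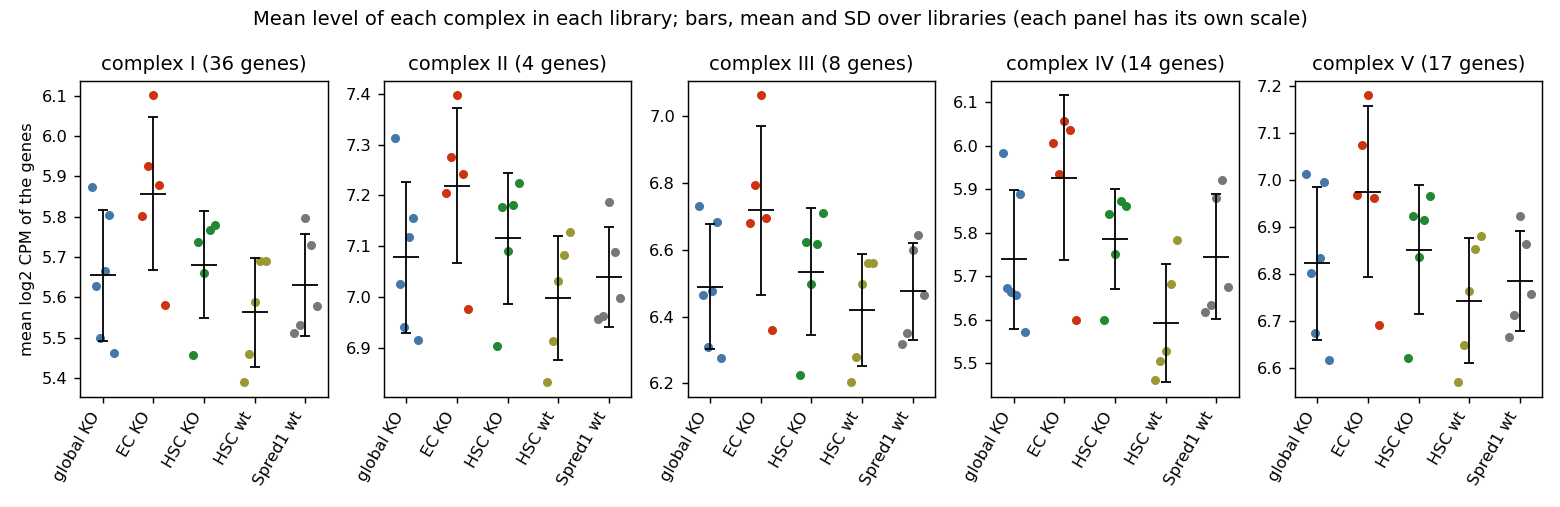
Mean log2 CPM of the genes of each complex in every library, with mean and SD by group and a separate scale in each panel. In all 5 panels 4 EC KO libraries lie high and the other lies with the controls, and the group mean of EC KO for complex I is 5.86, against 5.63 in Spred1 wt.

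The EC KO comparison set LSK cells of mice labelled as endothelial Spred1 knockouts, in which Spred1 was also lower in the LSK libraries, against Spred1 wt. Most subunit transcripts had slightly higher estimates in EC KO than in Spred1 wt: 77 of 79 had a positive log2 difference, with a median of 0.209, against 53.5% and 0.0206 over all genes tested. By edgeR's quasi-likelihood test with Benjamini-Hochberg adjustment over all genes, 7 of 79 (8.86%) rose and 0 fell, where 3.49% of all genes tested rose, 4.47% fell and 7.96% did either. The unadjusted p was under 0.05 for 34 of the 79, where it was for 25.1% of all genes. In 3 genes, Ndufb3, Ndufs4 and Ndufb11, all EC KO libraries exceeded all Spred1 wt libraries, where 2.29% of all genes did so. In bulk libraries, a different share of a cell type and a different RNA level per cell cannot be told apart.

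Of the 7 that rose, 6 carry complex I symbols and Cox7c belongs to complex IV. They lie on chromosomes 1 (Ndufb3), 6 (Ndufa4), 7 (Ndufa3 and Ndufc2), 13 (Ndufs4 and Cox7c) and 15 (Ndufa6) in the table's mm10 coordinates, with Ndufb3 at 58586397 to 58595964 (+) and Ndufs4 at 114287795 to 114388094 (-). Ndufb3, an accessory subunit of the membrane arm of complex I, had 47.3, 47.1, 61.8, 50.5 and 41.9 CPM in EC KO, against 31.5, 32.9, 38.1, 38.3 and 31.6 CPM in Spred1 wt. The groups did not overlap, and the log2 difference was 0.53 (SE 0.103, edgeR adjusted p = 0.00239). Ndufs4, an accessory subunit of the matrix arm whose loss causes Leigh-like disease in mice and people, had 43.8, 49.1, 64.7, 50.8 and 43.5 CPM in EC KO, against 39.0, 40.7, 38.9, 38.3 and 38.7 CPM in Spred1 wt. Here the Spred1 wt libraries were nearly level and the third EC KO library stood above the other EC KO libraries. The log2 difference was 0.36 (SE 0.0891, adjusted p = 0.0126).

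Ndufc2, a membrane-arm accessory subunit, had 62.9, 71.8, 93.4, 69.1 and 55.9 CPM in EC KO, against 46.0, 50.2, 57.2, 55.2 and 45.9 CPM in Spred1 wt, a log2 difference of 0.47 (SE 0.120, adjusted p = 0.0163). Ndufa4 had 131, 141, 169, 139 and 117 CPM in EC KO, against 98.6, 105, 127, 105 and 94.6 CPM in Spred1 wt, a log2 difference of 0.39 (SE 0.0993, adjusted p = 0.0155). In both genes only the fifth EC KO library fell within the Spred1 wt range. Cox7c, a small structural subunit of cytochrome c oxidase, showed that pattern too, with 81.6, 87.0, 106, 88.2 and 66.4 CPM in EC KO, against 59.3, 55.9, 76.5, 67.0 and 66.1 CPM in Spred1 wt. Its log2 difference was 0.40 (SE 0.111, adjusted p = 0.0267).

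Ndufa3, another membrane-arm accessory subunit, averaged 51.4 ± 6.33 CPM in EC KO and 41.5 ± 3.05 CPM in Spred1 wt (SD, n = 5 each), with an edgeR adjusted p of 0.0379. Ndufa6, an accessory subunit of the matrix arm, averaged 63.7 ± 6.48 CPM in EC KO and 52.1 ± 7.34 CPM in Spred1 wt (adjusted p = 0.0434). Only 2 of 5 EC KO libraries exceeded all Spred1 wt libraries for Ndufa6, and the third Spred1 wt library stood at 64.4 CPM. Both calls were lost in 4 of 11 alternatives, and over 10 omissions of a single library Ndufa3 passed in 2 and Ndufa6 in 3. Cox7c passed in 4 omissions, Ndufa4 and Ndufc2 in 8 and Ndufs4 in 9.

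**Figure D3:**
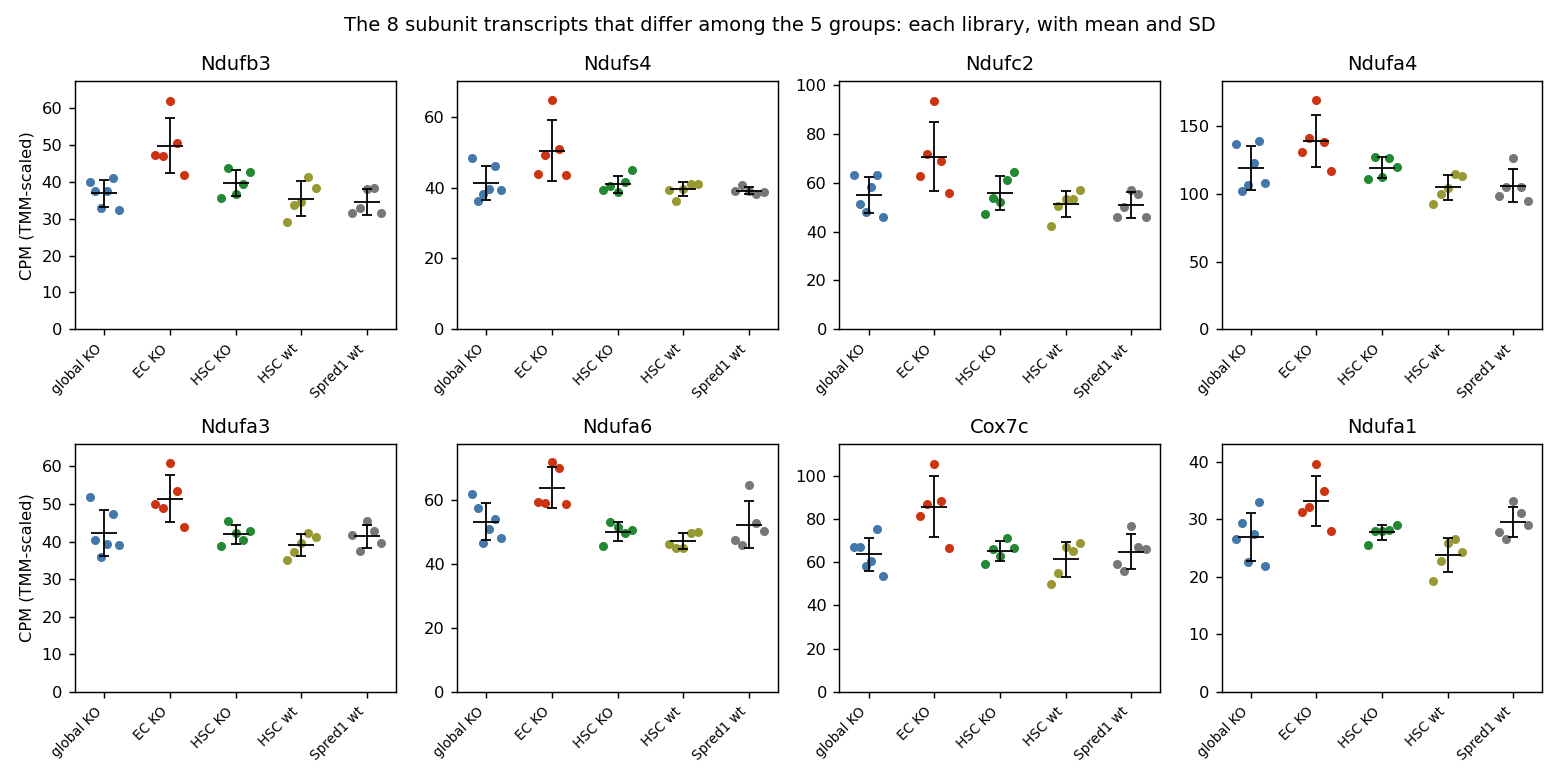
CPM in each library of the 8 genes called in the test of any difference among the 5 groups, with mean and SD by group on axes from 0. For Ndufb3 all 5 EC KO libraries (41.9 to 61.8 CPM) lie above all 5 Spred1 wt libraries (31.5 to 38.3 CPM), and the third EC KO library is highest in each panel.

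The following subunits, taken by role, did not pass. Ndufs1 averaged 141 ± 18.1 CPM in EC KO and 117 ± 9.59 CPM in Spred1 wt (0.26, edgeR adjusted p = 0.0619) and Ndufv1 112 ± 10.7 CPM in EC KO and 97.0 ± 6.91 CPM in Spred1 wt (adjusted p = 0.175). Sdha averaged 346 ± 17.7 CPM in EC KO and 318 ± 22.4 CPM in Spred1 wt, with a log2 difference of 0.12 and an interval of -0.013 to 0.255. The core protein Uqcrc1 averaged 195 ± 22.8 CPM in EC KO and 174 ± 20.7 CPM in Spred1 wt (0.16), and the regulatory subunit Cox4i1 270 ± 21 CPM in EC KO and 239 ± 20 CPM in Spred1 wt (0.18). In ATP synthase, Atp5b averaged 1128 ± 166 CPM in EC KO and 986 ± 119 CPM in Spred1 wt (0.19, interval -0.0543 to 0.442) and Atp5a1 1035 ± 140 CPM in EC KO and 895 ± 98.6 CPM in Spred1 wt (0.21, interval -0.0137 to 0.432). All of these differences were positive, and none can be set apart from 0 at the adjusted threshold.

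An unadjusted p under 0.05 was found for 17 of 36 genes in complex I, 2 of 4 in II, 5 of 8 in III, 5 of 14 in IV and 5 of 17 in V. Nearest to the threshold without passing were 3 complex I genes, Ndufv2 (edgeR adjusted p = 0.0517), an iron-sulfur subunit next to the NADH site, Ndufb11 (adjusted p = 0.0522) and Ndufa9 (adjusted p = 0.0561). The complex medians of the log2 difference between EC KO and Spred1 wt were 0.23 for I, 0.156 for II, 0.268 for III, 0.188 for IV and 0.202 for V, and differences between complexes were not tested. In complex II, where the genes of smallest p are given as for the complexes after it, Sdhd averaged 147 ± 25.8 CPM in EC KO and 115 ± 8.18 CPM in Spred1 wt, with an edgeR adjusted p of 0.0721, and Sdhc had an adjusted p of 0.137. In complex III, Uqcrfs1 averaged 113 ± 16.7 CPM in EC KO and 90.6 ± 5.93 CPM in Spred1 wt (adjusted p = 0.0734), and the core protein Uqcrc2 averaged 202 ± 36.0 CPM in EC KO and 165 ± 15.2 CPM in Spred1 wt (adjusted p = 0.0781). Cox7a2 in complex IV averaged 90.1 ± 21.3 CPM in EC KO and 68.6 ± 6.52 CPM in Spred1 wt (adjusted p = 0.0702). In complex V, Atp5j2 (subunit f) averaged 106 ± 23.7 CPM in EC KO and 81.0 ± 9.74 CPM in Spred1 wt (adjusted p = 0.0798), and Atp5g3 192 ± 29.1 CPM in EC KO and 155 ± 7.48 CPM in Spred1 wt (adjusted p = 0.102). The 2 genes with negative differences were Cox6a2 (-0.23) and the complex I accessory subunit Ndufs5 (-0.21).

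The third EC KO library carried much of the count. Without it, Ndufb3 alone of the 79 passed (edgeR adjusted p between 0.00137 and 0.0122 over all 10 single omissions), and without the fifth EC KO library 24 passed. Without the fifth Spred1 wt library 2 passed, and 4 passed without the first or the second Spred1 wt library and without the second or the fourth EC KO library. Under the sex term 4 passed, and in a fit of the EC KO and Spred1 wt libraries alone only Ndufb3 did. The shares of all genes that passed under these omissions and fits are not reported here. These counts alone do not set the subunits against other genes.

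Gene length moved with this result. The 79 genes are short, with a median length of 0.735 kb, against 3.27 kb for all genes tested. Among other genes under 1 kb, 75% were higher in EC KO, the median log2 difference was 0.186 and 8.11% rose past the threshold, against a median of -0.0635 and 1.28% for genes over 4 kb. The 53 subunit genes under 1 kb had a median of 0.236. Those of 1 to 2 kb had a median of 0.194, against 0.110 for other genes of that length, and those of 2 to 4 kb had 0.151, against 0.0383. With a per-library length trend removed, the median over the 79 was 0.0568 and 3 genes rose, which were Ndufb3, Ndufs4 and Ndufc2. The median and the share that rose over all genes in that fit are not reported here. The count of 3 therefore does not set the subunits against other genes.

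**Figure D4:**
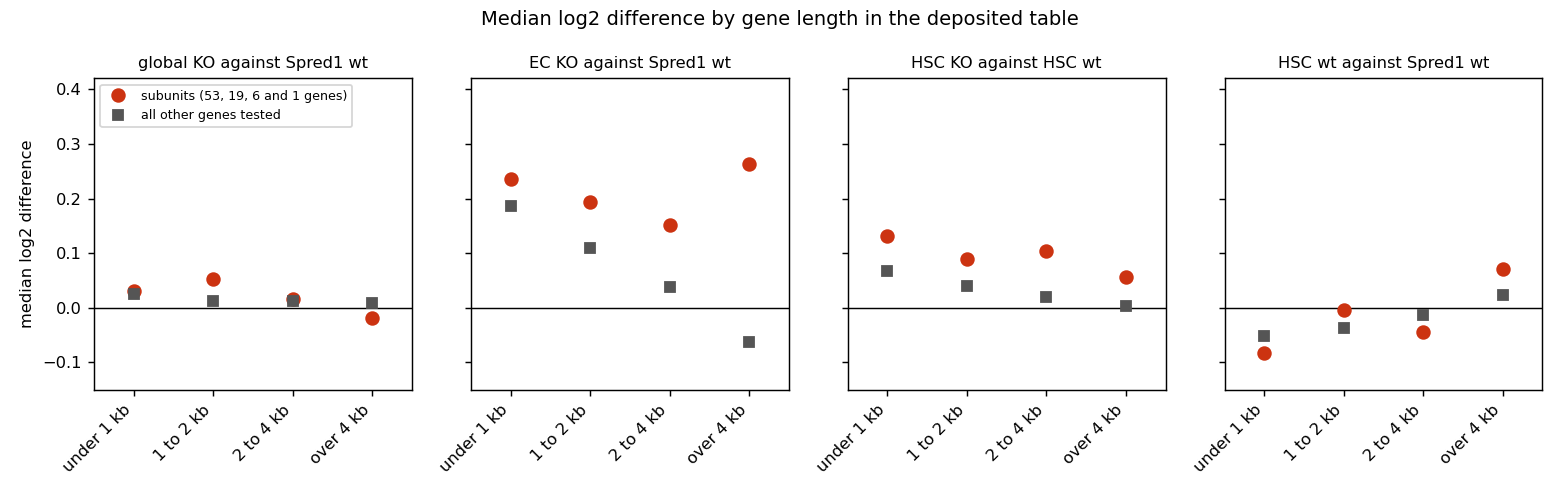
Median log2 difference of subunit genes (circles) and all other genes tested (squares) in 4 classes of gene length, 1 panel for each comparison. In EC KO against Spred1 wt the other genes descend with length, between 0.186 under 1 kb and -0.0635 over 4 kb, and the single subunit gene over 4 kb stands at 0.264.

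The cell markers also differed between the EC KO and Spred1 wt libraries. The 8 mast cell markers summed to 3752, 4359, 441, 555 and 610 CPM in EC KO, against 1959, 2607, 15060, 8681 and 8996 CPM in Spred1 wt. Of the 8, 7 were lower and 1 was higher, at a median log2 difference of -2.1, and only 2 passed. These 2, Mcpt4 and Gzmb, fell (log2 differences -3.74 and -2.62, edgeR adjusted p = 0.013 and 0.0242). Kit, the stem cell factor receptor that defines the sort and is also made by mast cells, fell too (-0.85, adjusted p = 0.00447). Kit was the only 1 of 9 LSK markers to pass, and of the 9, 4 were higher and 5 lower at a median of -0.0126. No mast cell marker was at 0 in any library. With the mast cell sum as a term, chosen after seeing the data, 18 of the 79 rose. The share of all genes that rose under that term is not reported here, so this count does not set the subunits against other genes. Neutrophil markers summed to 132 to 759 CPM in EC KO and 35.2 to 762 CPM in Spred1 wt, and erythroid markers to 27.2 to 168 CPM in EC KO and 18.3 to 58.5 CPM in Spred1 wt, with 8 of 8 erythroid markers higher and 0 past the threshold. Their part in the result was not tested.

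**Figure D5:**
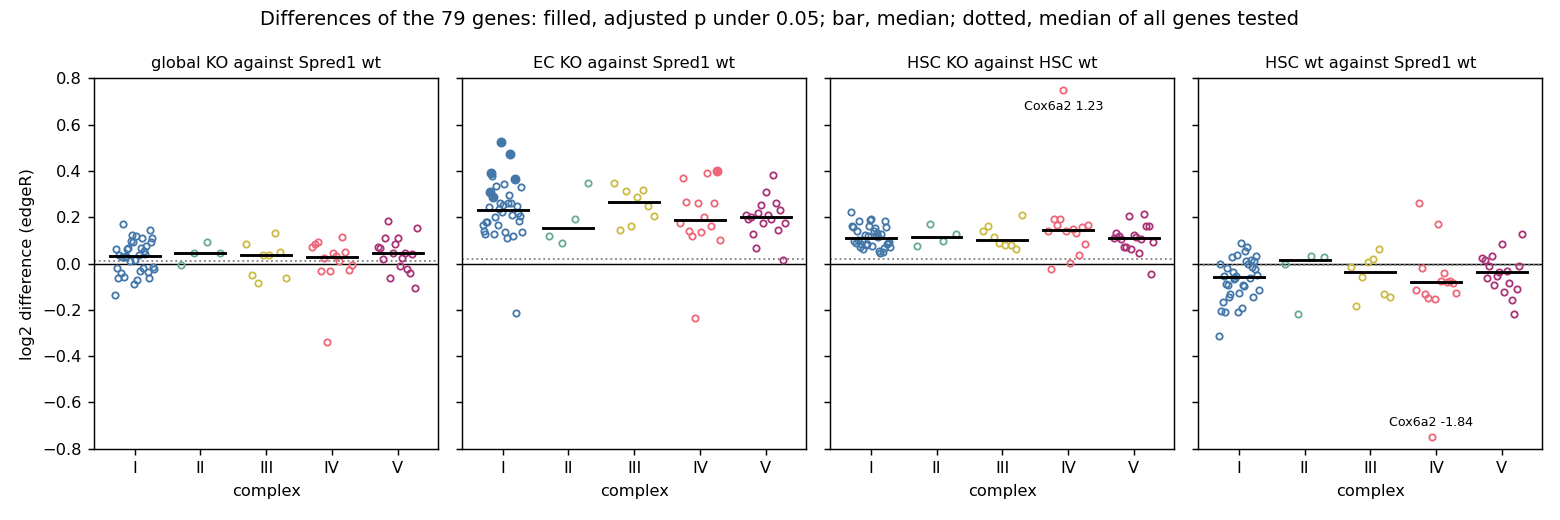
Log2 difference of each of the 79 genes by complex in 4 comparisons, with filled points for an adjusted p under 0.05, bars for complex medians and dotted lines for the median of all genes tested. The filled points are the 7 genes of EC KO, and Cox6a2 is drawn at the edge with its value in the panels of HSC KO (1.23) and HSC wt (-1.84).

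The global KO comparison held no subunit past the threshold. It is a comparison that shares its Spred1 wt libraries with that of EC KO. By edgeR, 0 of 79 were called between global KO and Spred1 wt, where 0.0747% of all genes were. The unadjusted p was under 0.05 for 1 of them, where it was for 5.53% of all genes. That gene was Atp5sl, at 37.4 ± 2.70 CPM in global KO (n = 6) and 33.7 ± 1.88 CPM in Spred1 wt (n = 5), a log2 difference of 0.15 (SE 0.065, edgeR adjusted p = 0.821). DESeq2 and limma voom also called 0. Positive differences were seen for 52 of 79, at a median of 0.0369, against 54.5% and 0.0116 over all genes, and leaving out single libraries took that median between -0.0234 and 0.0757.

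In complex I, Ndufa4 averaged 119 ± 16.2 CPM in global KO and 106 ± 12.4 CPM in Spred1 wt (0.17, edgeR adjusted p = 0.917), with an interval of -0.0284 to 0.368 around the log2 difference, and Ndufs7 had a difference of 0.14 (adjusted p = 0.954). Sdhb averaged 93.7 ± 14 CPM in global KO and 90.7 ± 7.51 CPM in Spred1 wt, and Sdhc had a difference of 0.093. Uqcrfs1 (0.13) and Uqcrb (-0.084) in complex III, and Cox7a2l (0.12) and Cox4i1 (0.073) in complex IV, lay within the spread between libraries. Atp5e, the epsilon subunit of complex V, averaged 69.9 ± 12.2 CPM in global KO and 61.6 ± 3.76 CPM in Spred1 wt (0.18, adjusted p = 0.917).

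The HSC KO comparison gave small differences, mostly of 1 sign, without a call. Positive log2 differences to HSC wt were found for 77 of 79 genes, at a median of 0.116, against 56.9% and 0.0181 over all genes tested. By edgeR 0 were called, where 0.0224% of all genes were, and 2 had an unadjusted p under 0.05, where 2.16% of all genes did. DESeq2 and limma voom called 0 as well. Since the genes move together between libraries, the number with 1 sign is not a count of independent observations. Other genes under 1 kb had a median of 0.067 in this comparison and 68.2% were higher, against 0.132 for the 53 subunit genes of that length. Further lists leaned the same way without a call. Higher were 78 of 78 cytosolic ribosome genes, 72 of 77 of the mitochondrial ribosome (median 0.0974) and 13 of 13 of the citrate cycle (0.113). So were 13 of 15 glycolysis genes (0.0956) and 15 of 16 S phase genes. Neutrophil, LSK and mast cell markers leaned lower.

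Between the HSC KO and HSC wt libraries, cell marker and mitosis genes had the following estimates, none of them called. Of 8 erythroid markers 8 were higher, at a median log2 difference of 2.88, but the sum was 408 CPM in the first HSC KO library and 11.8 to 27.4 CPM in the other HSC KO libraries, against 16.9 to 20.8 CPM in HSC wt, and up to 3 of the 8 were at 0 in a library. Of 7 neutrophil markers 7 were lower (median -0.858), with sums of 55.3 to 531 CPM in HSC KO and 117 to 766 CPM in HSC wt. Of 9 LSK markers 7 were lower (median -0.217), and of 16 genes of G2 and mitosis 16 were higher (median 0.104). Without the first HSC KO library the median over the 79 subunits was 0.172 and 0 passed. The part of the other markers in these differences was not tested.

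Cox6a2 was 1 of those 2 genes. It had 4.20, 1.84, 2.29, 2.25 and 1.95 CPM in HSC KO, against 1.32, 0.720, 0.557, 1.11 and 1.58 CPM in HSC wt. The groups did not overlap, as in 0.441% of all genes for libraries above, and the log2 difference was 1.23 (SE 0.586, edgeR adjusted p = 0.999). Within HSC KO, the first library was highest for Cox6a2 and for the erythroid (408 CPM), B cell (32.4 CPM) and T cell (7.17 CPM) marker sums. It also held the highest sum of the plasma cell markers Jchain, Mzb1 and Xbp1, at 1012 CPM. That sum was 215 to 285 CPM in the other HSC KO libraries and 170 to 301 CPM in HSC wt. The other HSC KO libraries also lay above all HSC wt libraries for Cox6a2. The part of any of these markers in the Cox6a2 values was not tested. Ndufa1, an X-linked accessory subunit needed for complex I assembly, averaged 27.7 ± 1.34 CPM in HSC KO and 23.8 ± 2.96 CPM in HSC wt (0.22, adjusted p = 0.999). Ndufa4 averaged 119 ± 7.65 CPM in HSC KO and 105 ± 9.25 CPM in HSC wt, and Sdhb 87.7 ± 4.67 CPM in HSC KO and 78.0 ± 4.80 CPM in HSC wt. In complexes III and V the smallest p belonged to Uqcrq (0.21, interval -0.158 to 0.575), a small subunit, and Atp5k (0.21, interval -0.0703 to 0.495), the e subunit at the dimer interface.

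The 2 Spred1-intact groups showed how far controls lie apart. HSC wt was the control of the Mx1-cre knockout and received poly(I:C), which was not stated for Spred1 wt. Of the libraries, 2 of HSC wt and 0 of Spred1 wt were female. Mx1-cre, poly(I:C) and sex cannot be told apart in this comparison. By edgeR 0 of 79 were called between HSC wt and Spred1 wt, where 0.0299% of all genes were, and 3 had an unadjusted p under 0.05, where 6.35% of all genes did. DESeq2 and limma voom called 0 as well. Log2 differences were negative for 58 of 79, with a median of -0.06, against -0.00622 over all genes. Ndufa1 had 19.2, 22.8, 25.99, 26.6 and 24.3 CPM in HSC wt, against 27.8, 26.7, 33.3, 31.1 and 29.0 CPM in Spred1 wt. All HSC wt libraries lay below all Spred1 wt libraries, as in 1.1% of all genes, with a log2 difference of -0.31 (SE 0.107, edgeR adjusted p = 0.549). Sdhb averaged 78.0 ± 4.80 CPM in HSC wt and 90.7 ± 7.51 CPM in Spred1 wt (-0.22, adjusted p = 0.751).

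Cox6a2 showed a log2 difference of -1.84 between HSC wt and Spred1 wt (SE 0.585, edgeR adjusted p = 0.516), with 0.557 to 1.58 CPM in HSC wt, against 3.27, 3.13, 1.49, 8.83 and 2.47 CPM in Spred1 wt. The fourth Spred1 wt library stands far above the rest. The 3 plasma cell markers summed to 170 to 301 CPM in HSC wt and 356 to 642 CPM in Spred1 wt, and their part in the Cox6a2 values was not tested.

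Subtracting the HSC KO effect from the global KO effect gave a call for 0 of 79 by edgeR, where 0.0149% of all genes were, and 1 had an unadjusted p under 0.05, where 2.14% of all genes did. That gene was Ndufa1, at -0.36 (SE 0.148, edgeR adjusted p = 1). DESeq2 and limma voom called 0 as well. A test of any difference among the 5 groups called 8 of 79 (where 8.45% of all genes were called), and 27 had an unadjusted p under 0.05, where 23.9% of all genes did. The count of 8 lies near the share of all genes and is not read as a trait of the subunits. The 8 were the 7 genes of EC KO and Ndufa1, which averaged 33.2 ± 4.40 CPM in EC KO, 26.9 ± 4.19 CPM in global KO, 27.7 ± 1.34 CPM in HSC KO, 23.8 ± 2.96 CPM in HSC wt and 29.6 ± 2.64 CPM in Spred1 wt. EC KO had the highest group mean for 73 of 79, and HSC wt had the lowest for 54 and Spred1 wt for 20. The count of 8 fell to 1 without the third or the fourth EC KO library and reached 20 without the fifth. It was 2 without the second EC KO library, 3 without the fifth Spred1 wt library or any of the first 3 HSC wt libraries, and 4 and 5 without the fifth and the third HSC KO library.

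Partner genes of the subunits were taken in lists, and all following values compare EC KO with Spred1 wt by edgeR. Over all genes tested 53.5% were higher and 3.49% rose, and among the other genes under 1 kb 75% were higher and 8.11% rose. Median lengths were 2.28 kb for the complex I and 1.21 kb for the complex IV assembly factors, 1.19 kb for the mitochondrial ribosome and 0.77 kb for the cytosolic ribosome. Of 15 complex I assembly factors, 15 were higher and Ndufaf2 rose (0.34, adjusted p = 0.0483). Of 21 complex IV assembly factors, 19 were higher and 3 rose: the copper chaperone Cox17 (36.9 ± 5.69 CPM in EC KO and 28.8 ± 2.62 CPM in Spred1 wt, adjusted p = 0.0467), the membrane insertase Cox18 (adjusted p = 0.0464) and Cox20 (adjusted p = 0.0358). Tmem70, needed to assemble complex V, rose by 0.40 (47.4 ± 5.58 CPM in EC KO and 35.9 ± 3.53 CPM in Spred1 wt, adjusted p = 0.00572). None of 4 complex II and 6 complex III assembly factors passed, with Sdhaf4 nearest (0.45, adjusted p = 0.0623).

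Of the subunits that the symbol rule misses, 4 of 4 tested were higher and 2010107E04Rik rose (0.43, adjusted p = 0.0316). Among 16 carriers and exchangers, Slc25a4, the ADP/ATP translocase of heart and muscle, rose (151 ± 24.6 CPM in EC KO and 118 ± 9.05 CPM in Spred1 wt, adjusted p = 0.0478). Of 11 genes that copy or express mitochondrial DNA, 2 rose. They were Tfam, which packages that DNA and starts its transcription (78.1 ± 8.18 CPM in EC KO and 62.6 ± 2.25 CPM in Spred1 wt, 0.32, adjusted p = 0.00531), and Ssbp1, its single-strand binding protein (91.4 ± 12 CPM in EC KO and 71.8 ± 3.36 CPM in Spred1 wt, 0.35, adjusted p = 0.00342). Of 9 regulators of respiratory genes 0 passed, with Myc nearest (0.21, adjusted p = 0.223). Nrf1 averaged 60 ± 1.66 CPM in EC KO and 59.0 ± 2.55 CPM in Spred1 wt and Gabpa 114 ± 10.1 CPM in EC KO and 109 ± 5.49 CPM in Spred1 wt, both named after their values were seen.

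Of 13 genes of the citrate cycle, 12 were higher at a median of 0.175 and 0 passed, with Fh1 nearest (0.33, adjusted p = 0.0546). Of 15 glycolysis genes, 9 were higher at a median of 0.0398 and 0 passed. In the mitochondrial ribosome 77 of 77 were higher and 8 rose, with Mrps18c leading (0.54, adjusted p = 0.0125). In the cytosolic ribosome 74 of 78 were higher and 31 rose. Of 16 S phase genes, 16 were higher and Mcm6, Tyms and Prim1 rose, and of 16 genes of G2 and mitosis 11 were higher and Cdk1 rose. Genes of a list are read from the same libraries, so counts of 1 sign in a list are not independent observations. Whether any list stood apart from other genes of like length was not tested. In the other 4 comparisons, 0 genes passed in any of the 24 lists.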

How the data were processed

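RNA-seq of sorted mouse LSK cells gave 26 libraries in 5 groups, grouped by the genotype labels. What the authors deposited is a table of raw counts, whole numbers for each gene and library. The submitters' processing notes name mm10, edgeR 3.28.1, HTSeq 0.6.0, STAR 2.6.0 and bcl2fastq 2.18.0.12. The annotation and strand setting are not given in the sources used here. The table's gene lengths, deposited in kb, gave levels per kb and the length classes; coordinates of promoters are RefSeq's on GRCm38.p6, the assembly of mm10.

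All libraries entered 1 fit in edgeR 4.0.16 (R 4.3.3; TMM, filterByExpr with a minimum count of 10, robust quasi-likelihood F-test, 21 residual degrees of freedom, two-sided), with Benjamini-Hochberg adjustment over 13379 genes at 0.05. CPM use TMM-scaled totals, and log2 CPM a prior count of 2. Intervals are 95% and use the standard error of the fit. Depth (14816071 to 26714325 counts per library) limits precision for counting error only. The fit was tested on simulated data.

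The members, lists and tests were chosen with earlier results of these data known. Named were called members, the 2 of smallest p per complex and comparison, the extremes of level, preset subunits and isoform pairs, and called or leading list genes; the text narrows this after values were seen, and Ndufb11, Ndufs5, Ndufv2, Ndufa9, Nrf1 and Gabpa were added then. Pseudogenes, S6 kinases and a binding protein were taken out of the cytosolic ribosome list after its counts were seen. The values of 1 preset subunit are not reported here. Alternatives were RLE and upper-quartile scaling, no filter or 1 CPM, compared groups only, sex, gene length, mast cell sum (chosen after seeing the data), HSC wt as control, limma voom (3.58.1), DESeq2 (1.42.0) and single omissions. Gene length offsets came from a loess trend per library. Spans over 1 Mb were left out of overlaps.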

Additional observations from a re-analysis of the deposited data

Results flagged for a closer look

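In 165 sets of 5 or 6 library values (mean levels by complex and the levels of 27 genes, by group), 7 held a library whose gap to the next was large against the range of its group. Chance alone marks about 1 in 20. The fifth EC KO library had the lowest complex IV mean, at 5.60 log2 CPM, against 5.93 to 6.06 in the other EC KO libraries, and its Cox4i1 stood at 233 CPM, against 273 to 287. Cox6a2 was marked in 3 groups: the fourth EC KO library at 7.83 CPM (others 1.13 to 3.01), the first HSC KO library at 4.20 CPM (others 1.84 to 2.29) and the fourth Spred1 wt library at 8.83 CPM (others 1.49 to 3.27). Sdhb was marked in the first global KO library, at 121 CPM (others 82.7 to 93.0), and in the first HSC KO library, at 79.5 CPM (others 88.4 to 91.0). Their causes were not tested.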

How the results depend on the processing

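No paired analysis was possible because the labels give no replicate number shared between groups. The count of 7 subunits in EC KO against Spred1 wt became 1 in a fit of the compared groups only, 4 with a sex term, 3 with gene length offsets (median log2 difference 0.0568), 18 with the mast cell term, 23 with HSC wt as control, 25 with limma voom and 11 with DESeq2, and between 1 and 24 with single libraries left out. Over these omissions the median difference lay between 0.155 and 0.267. The count of 8 for any difference became 5 without a filter and with a sex term, 1 with gene length offsets and 13 with DESeq2, and between 1 and 20 with single libraries left out. The shares of all genes called under these settings and omissions are not reported here. The counts therefore do not show whether the subunits moved more than other genes. Ndufb3 passed in all 11 alternatives and all 10 omissions run for EC KO, whereas Ndufa1 reversed to -0.0419 with gene length offsets. Length offsets remove by construction any shared trend with length; other causes were not tested. In the other 4 comparisons 0 subunits passed under any alternative or omission run; the omissions took the median to between 0.0674 and 0.172 in HSC KO, -0.0913 and -0.015 in HSC wt, and -0.132 and -0.0394 for the difference of effects, and limma voom took HSC wt to 0.0221. Low counts limit Cox6a2 and Cox4i2.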
